A study of Mus musculus with 16 samples.

Results

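The 7 genes described here, Apoe, Clu, Abca1, Abca7, Lrp1, Bin1 and Picalm, are apolipoproteins and lipid-linked genes of Alzheimer's disease (AD). They were taken by name from the 19999 genes of a raw count table, and all 7 were present. The table holds 114512 nuclei of the medial prefrontal cortex (PFC) of 16 male mice, measured by snRNA-Seq with a 10x Genomics 3′ kit. Nuclei were assigned to cell classes by marker genes where these allowed it, counts were summed per mouse and class, and the 7 genes were followed over 20 classes and 4 groups of 4 mice.

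The mice were 22 weeks old and carried either the 3xTg-AD alleles or none of them, on a B6;129 background. The 3xTg-AD line carries transgenes for mutated human APP and mutated human tau, both driven in neurons by the Thy1 promoter. Alleles of the mixed background that differ between the line and its WT controls cannot be told apart from the 3xTg-AD alleles. The alcohol groups received injections of ethanol with pyrazole, an inhibitor of alcohol dehydrogenase, and weeks of chronic intermittent ethanol vapor. The control groups received pyrazole in saline and air in chambers for the same periods, so that all 4 groups carried pyrazole. In the study the tissue was taken days after the last vapor exposure and after testing in the Morris water maze. The differences below thus follow a history of alcohol and not an ongoing exposure. WT and 3xTg-AD mice with air are called controls below.

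Apoe and clusterin (Clu) are the main apolipoproteins that brain cells secrete. Abca1 loads them with cholesterol and phospholipid at the plasma membrane, and Abca7 is a related lipid transporter. The resulting particles are taken up by receptors of the LDL receptor family, of which Lrp1 is a large endocytic member, and Bin1 and Picalm work at the membrane during endocytosis, Bin1 by bending membrane and Picalm as an adaptor of clathrin. All 7 are known from human genetics or cell biology of AD, in which lipid transport between glia and neurons and the clearance of amyloid are long-standing themes.

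In the RefSeq annotation of GRCm38.p6, the build that mm10 names, Apoe lies on chromosome 7 at 19696244 to 19701310 and Picalm on the same chromosome at 90130192 to 90209447. Clu lies on chromosome 14 at 65968483 to 65981548 and Abca1 on chromosome 4 at 53030789 to 53159988. Abca7 and Lrp1 are both on chromosome 10, at 79996453 to 80015572 and at 127538157 to 127621148.

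Libraries held 4955 to 9096 nuclei and 9622031 to 17544364 UMIs (unique molecular identifiers, 1 per captured transcript). Pairs of libraries shared 3 to 27 cell barcodes. The marker genes named 76996 droplets and left 37516 (32.8%) unnamed, since these carried markers of several classes or of none. A further 11574 glutamatergic and 2175 GABAergic nuclei were named only that far, and they entered only the glutamatergic and GABAergic sums. The unnamed share was 19.2 to 38.1% in the 8 air mice (median 30.3%) and 19.1 to 43.9% in the 8 alcohol mice (median 36.2%). In WT mice it was 22.8 to 32.2% with air and 28.9 to 41.4% with alcohol. In 3xTg-AD mice it was 19.2 to 38.1% and 19.1 to 43.9%. In 3 air libraries, WT controls 26 and 27 and 3xTg-AD control 12, Gm42418, a locus that overlaps ribosomal RNA sequence, reached at least 17914 CPM (the UMI count scaled to a common library size), against at most 4249 CPM in the other 13. WT control 27 also gave 1134 of the 1972 nuclei of the Meis2 class. Of the 20 classes, 18 had enough nuclei for tests between groups, and pericytes with smooth muscle (Mural) and L6b neurons did not. Levels below are CPM of the summed counts of a class after TMM scaling of library sizes, a correction for library composition that the Gm42418 values above did not have. They are given as mean ± SD over mice and are not divided by gene length, so they compare classes for 1 gene and not genes with each other.

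Apoe was highest in astrocytes, at 5907 ± 2080 CPM (SD, n = 16 mice). The lowest of the 16 mice had 3218, the median mouse 5321 and the highest 10821 CPM in this class. The vascular and glial classes followed in a band well below that mean, with 2788 ± 1997 CPM in mural cells (n = 12), 2618 ± 1207 in vascular leptomeningeal cells (VLMC, n = 15), 2375 ± 780 in endothelial cells and 2082 ± 686 in oligodendrocyte precursor cells (OPCs). These 4 neighbours did not differ beyond their spread over mice. Oligodendrocytes (1319 ± 386 CPM) and microglia with perivascular macrophages (Microglia-PVM, 1313 ± 284 CPM) formed the next step, and OPCs lay above oligodendrocytes in 16 of 16 mice. The 13 neuron classes ranged from 285 CPM in L5 ET to 639 CPM in Vip, and microglia exceeded Vip in 16 of 16 mice.

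Clu had a similar order. It was highest in astrocytes at 903 ± 262 CPM, with a lowest mouse of 438, a median of 912 and a highest of 1401 CPM. Mural cells followed with 518 ± 333 CPM, below astrocytes in 11 of 12 mice, then VLMC with 367 ± 199, endothelial cells with 303 ± 112 and microglia with 219 ± 40.3 CPM. Neuron classes ran from 76.8 CPM in L5 ET to 184 CPM in Lamp5. Lamp5 and Sncg (175 CPM) thus lay between OPCs (200 ± 52.0 CPM) and oligodendrocytes (172 ± 49.4 CPM), from which they did not differ beyond their spread. Over the 20 classes the pooled log2 levels of Apoe and Clu had a Pearson r of 0.92, which is a description across classes that share the same libraries.

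**Figure D1:**
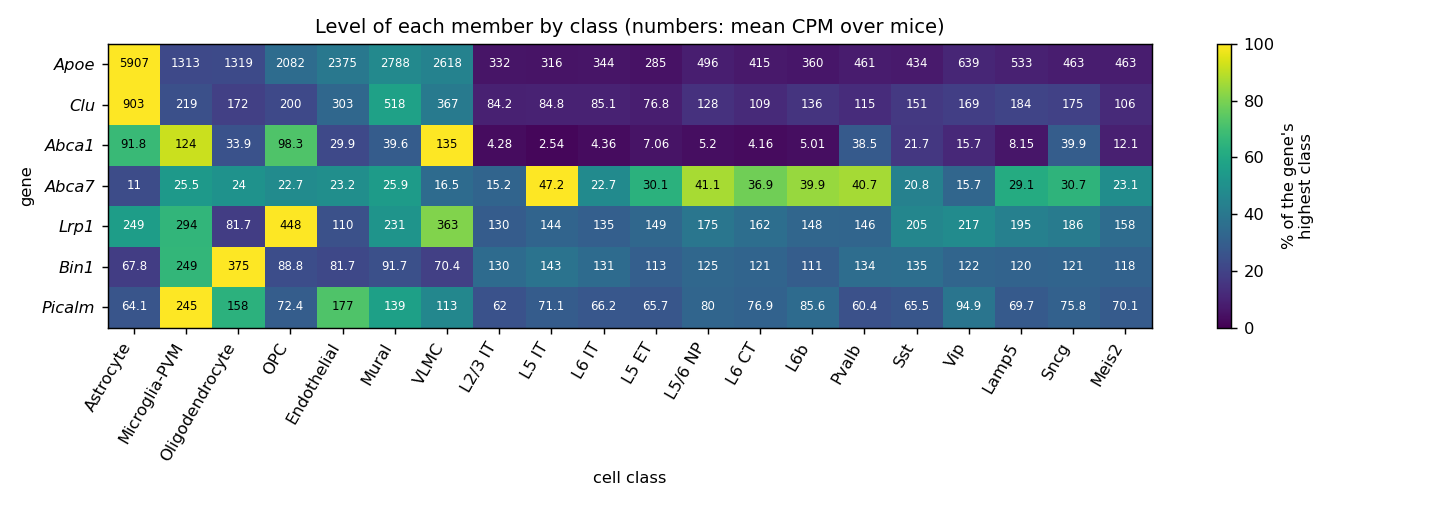
Mean level of the 7 genes (rows) in 20 cell classes (columns), as CPM printed in each cell, with color giving the percent of the gene's highest class. Apoe and Clu peak in astrocytes, Abca1 in VLMC and microglia, Lrp1 in OPCs, Bin1 in oligodendrocytes, Picalm in microglia, and Abca7 in L5 IT neurons.

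Abca1, the cholesterol exporter, was highest in VLMC at 135 ± 51.6 CPM (n = 15), a value that rests on 2 to 15 UMIs per mouse. Microglia had 124 ± 37.4 CPM, OPCs 98.3 ± 28.1 CPM and astrocytes 91.8 ± 13.9 CPM, and none of these 4 neighbours differed beyond its spread. Among neurons the higher levels of Abca1 were in GABAergic classes, with 39.9 ± 28.8 CPM in Sncg and 38.5 ± 11.6 CPM in Pvalb. The glutamatergic classes lay between 2.54 CPM in L5 IT and 7.06 CPM in L5 ET, so that VLMC exceeded all glutamatergic nuclei together (4.50 ± 1.41 CPM) 30.1-fold.

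Abca7, the related transporter, was highest in neurons. Its highest level was 47.2 ± 14.1 CPM in L5 IT neurons, with 32.7 CPM in the lowest mouse, 41.9 in the median mouse and 80.2 in the highest. L5/6 NP (41.1 ± 10.6 CPM), Pvalb (40.7 ± 21.4 CPM), L6b (39.9 ± 25.7 CPM) and L6 CT neurons (36.9 ± 10.7 CPM) were close to it and did not differ from their neighbours beyond their spread. L2/3 IT neurons were the lowest neuron class with 15.2 ± 4.79 CPM, and astrocytes the lowest class of all with 10.98 ± 4.66 CPM. Microglia had 25.5 ± 12.8 CPM from 86 UMIs in all. Over classes, the pooled log2 levels of Abca7 had an r of -0.49 with those of Abca1 and of -0.59 with those of Apoe.

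Lrp1, the endocytic receptor, was highest in OPCs at 448 ± 58.6 CPM, with 319 CPM in the lowest, 463 in the median and 555 in the highest mouse. VLMC followed with 363 ± 93.2 CPM, microglia with 294 ± 53.4 CPM and astrocytes with 249 ± 28.5 CPM. Oligodendrocytes, which descend from OPCs, had the lowest level of the 20 classes at 81.7 ± 23.9 CPM, 5.48-fold below OPCs. Neurons lay between these, from 130 CPM in L2/3 IT to 217 CPM in Vip.

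Bin1 reversed that order within the oligodendrocyte lineage. Its level was 375 ± 59.8 CPM in oligodendrocytes, from 268 CPM in the lowest mouse over a median of 387 to 500 CPM in the highest, and 88.8 ± 28.8 CPM in OPCs. Microglia came second with 249 ± 49.5 CPM, below oligodendrocytes in 15 of 16 mice and above the highest neuron class, L5 IT (143 ± 17.2 CPM), in 16 of 16. The 13 neuron classes were close together, between 111 and 143 CPM, and astrocytes were lowest with 67.8 ± 11.4 CPM.

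Picalm was highest in microglia at 245 ± 49.1 CPM, with a lowest mouse of 181, a median of 229 and a highest of 358 CPM. Endothelial cells followed with 177 ± 68.4 CPM, oligodendrocytes with 158 ± 46.6 CPM and mural cells with 139 ± 87.9 CPM. Neuron classes spanned 60.4 CPM in Pvalb to 94.9 CPM in Vip, with astrocytes (64.1 ± 9.90 CPM) inside that range. All 7 levels compare classes that were named by markers other than these genes, and they are given as a description with no test.

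**Figure D2:**
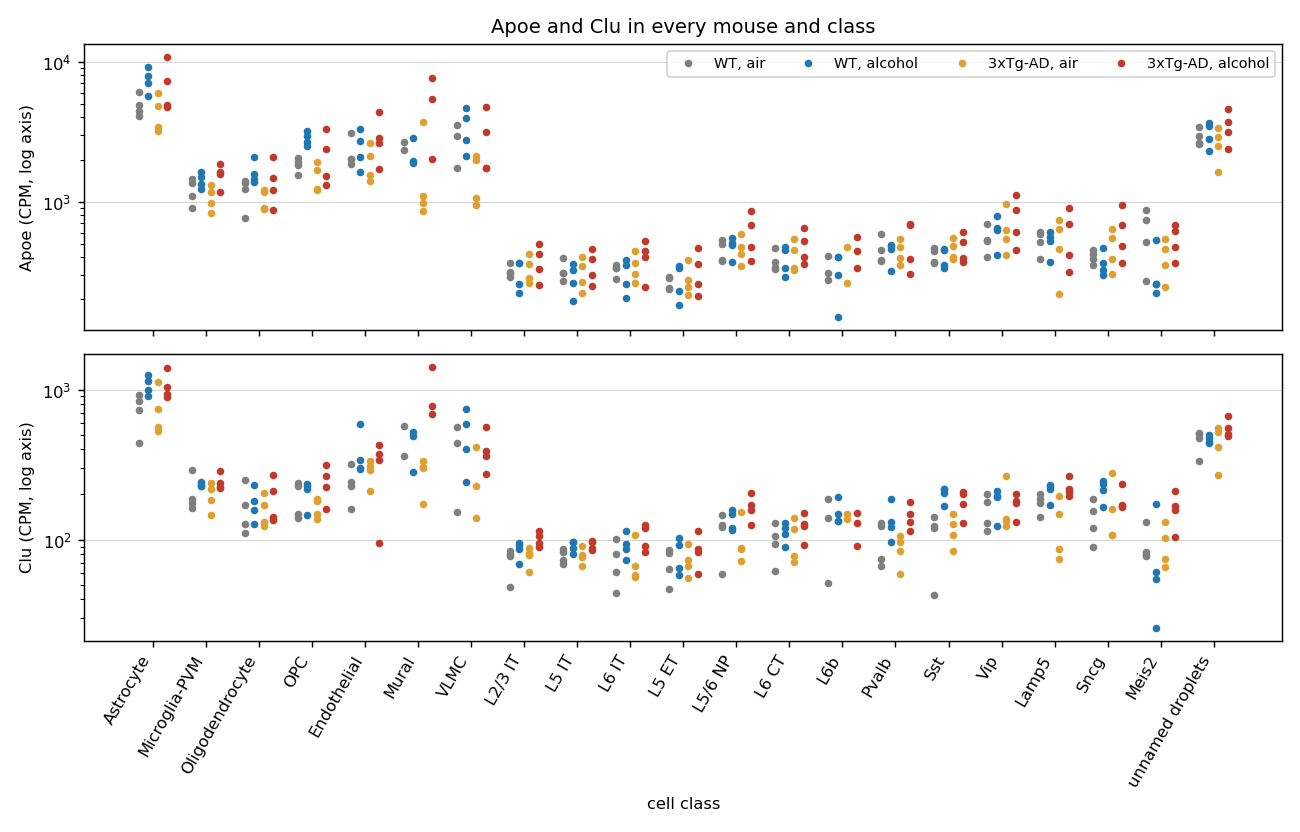
Apoe (top) and Clu (bottom) in every mouse, as CPM on a log axis, by cell class, with 1 point per mouse colored by group and the unnamed droplets at the right. Astrocytes have the highest mean for both genes (Apoe 3218 to 10821 CPM over mice). The neuron classes are lowest for Apoe, while for Clu Lamp5 and Sncg lie among the glial classes, and the unnamed droplets (mean 2998 CPM for Apoe and 480 for Clu) lie between astrocytes and neurons.

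Much of the Apoe and Clu signal came from droplets outside the named classes. Unnamed droplets held 48.7% of all Apoe UMIs and 43.9% of all Clu UMIs, while astrocytes, 6.72% of the droplets, held 24.4% and 20.98%. The unnamed level was 2998 ± 692 CPM for Apoe and 480 ± 91.0 CPM for Clu, which is 50.8% and 53.2% of the astrocyte level. The 12 astrocyte markers reached a median of 13.2% of their astrocyte level in the same droplets, with a range of 4.54 to 39.2%.

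In neurons the same reading bears on whether Apoe and Clu lie above free RNA. An Apoe UMI was found in 96.7% of astrocytes and in 57.7% of glutamatergic nuclei, with median depths per mouse of 926 to 1682 and 1760 to 3766 UMIs. Relative to astrocytes, Apoe was at 5.84% in glutamatergic and 8.35% in GABAergic nuclei. Clu was at 9.85% and 16.2%. The 12 astrocyte markers had a median of 2.76% (0.936 to 9.49%) in glutamatergic and 2.91% (1.52 to 16.5%) in GABAergic nuclei. The top of both ranges was set by 1 marker, Slc4a4, a bicarbonate transporter, and the next was Slc1a2. It was at 9.12% in glutamatergic nuclei, above Apoe and below Clu, and at 6.24% in GABAergic nuclei, below both. In Sst nuclei the markers had a median of 2.47% (1.24 to 8.27%), Clu at 16.7% lay above all 12, and Apoe at 7.35% lay within their range. Neuronal levels of Apoe and Clu are given here as counts in those nuclei, and how much of them is free RNA was not tested.

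Genes with the most similar profile over the 20 classes were sought for each of the 7 among 14106 genes, by Pearson r of log2(CPM + 1). For Apoe they were Mt1, Mt2 and Plpp3 (each r 0.97). Mt1 and Mt2 encode metallothioneins, which bind zinc and copper, and Plpp3 a lipid phosphatase that served as one of the astrocyte markers. Clu was nearest to Tst (r 0.95), Glud1 (0.95) and Tmed10 (0.94), of which Glud1 encodes glutamate dehydrogenase. Abca1 was nearest to Rest (0.90), Rhoq (0.89) and Fuca1 (0.89), and Picalm to Rasgrp3 (0.93), Snx2 (0.89) and Rhog (0.89). Rest is a repressor of neuronal genes. Profiles less like any other gene were those of Lrp1, led by Ampd3 (0.87), Fchsd2 (0.85) and Rlbp1 (0.78), Bin1, led by Zdhhc20 (0.85), Wdr20 (0.84) and Lrrc28 (0.83), and Abca7, led by Entpd7 (0.76), Elavl4 (0.75) and Mapk8 (0.75).

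The next question was whether the 7 genes differed between mice with and without a history of alcohol intoxication. Of 126 pairs of a gene and a class, 96 had enough counts to be tested. Each was tested with edgeR's quasi-likelihood test across all genes of the class, with Benjamini-Hochberg adjustment and a threshold of 0.05. For alcohol against air averaged over genotype, 1 of the 96 tests passed, which was Clu in Sst interneurons, and Clu also passed in the GABAergic sum. The background was a call in 0.676% of all 111419 tests of the same contrast over classes, and 1 call among 96 tests is near that share. Before adjustment, 18 of the 96 (18.8%) had a p of at most 0.05, against 12.9% of all tests. Clu gave 9 of the 18, Apoe 4, Lrp1 3, and Abca1 and Abca7 1 each. The classes come from the same mice, so these tests are not independent. The 7 genes were also chosen with earlier results of these data known, so an excess over the share of all tests is no independent support. Without the 3 air libraries rich in Gm42418, Clu and Apoe had 4 such p-values each, Abca1 2 and the other genes 0.

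Clu in Sst interneurons rose with alcohol. The WT controls had 124, 42.9, 142 and 120 CPM, and the WT mice with alcohol 218, 203, 167 and 216 CPM. The 3xTg-AD controls had 83.6, 147, 127 and 108 CPM, and the 3xTg-AD mice with alcohol 129, 174, 207 and 203 CPM. In WT mice the exposed and control values did not overlap, and in 3xTg-AD mice 1 of 4 exposed values lay among the controls. The log2 fold change averaged over genotype was 0.68 ± 0.15 (SE), a 1.60-fold difference, with an adjusted p of 0.00723 by edgeR. In this class 0.796% of 6281 genes were called. These levels rest on 7 to 89 Clu UMIs per mouse in 66 to 191 nuclei.

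The sum of GABAergic nuclei holds the Sst, Pvalb, Vip, Lamp5 and Sncg classes and the GABAergic nuclei without a type, but not the Meis2 class, and is no independent replication of Sst. In this sum Clu was at 124, 92.2, 143 and 140 CPM in WT controls and at 184, 167, 150 and 174 CPM in exposed WT mice. It was at 105, 144, 129 and 124 CPM in 3xTg-AD controls and at 144, 172, 192 and 151 CPM in exposed 3xTg-AD mice. The 8 exposed values (lowest 144.5) all lay above the 8 air values (highest 143.8), by a narrow gap. The log2 fold change was 0.39 ± 0.10 (SE), or 1.31-fold, with an adjusted p of 0.0230, in a sum where 2.06% of 11281 genes were called. In the Meis2 class, with 1 to 165 Clu UMIs per mouse, WT controls had 79.5, 131, 83.3 and 77.4 CPM and exposed WT mice 173, 54.5, 60.6 and 25.9 CPM, 3 of which lay below all 4 controls, and the difference averaged over genotype was 0.33 ± 0.33 (log2 ± SE, adjusted p = 0.936 by edgeR). This positive estimate was carried by the 3xTg-AD mice.

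**Figure D3:**
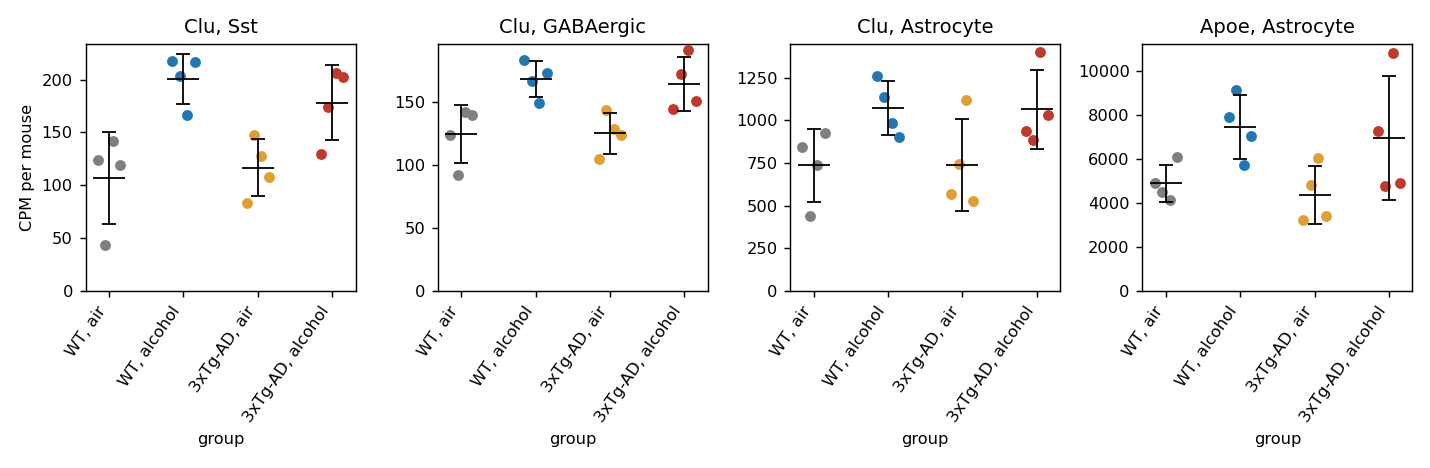
CPM per mouse (vertical axis, from 0) in the 4 groups for Clu in Sst, GABAergic and astrocyte nuclei and for Apoe in astrocytes, with 1 point per mouse, a long line for the mean and bars for the SD. Exposed mice lie above air mice for Clu in the GABAergic sum (144 to 192 against 92.2 to 144 CPM), and values of exposed and air mice overlap in the other panels, except between the WT groups for Clu in Sst nuclei.

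Both calls were sensitive to 3 air libraries. Without WT controls 26 and 27 and 3xTg-AD control 12, the libraries rich in Gm42418, the log2 fold change of Clu was 0.52 in Sst (adjusted p = 0.0820) and 0.27 in GABAergic nuclei (adjusted p = 0.122), both by edgeR. WT control 27 was the lowest library of all 16 in both sums. The GABAergic call was also lost without exposed 3xTg-AD mouse 33 (0.36, adjusted p = 0.0676) or exposed WT mouse 18 (0.39, adjusted p = 0.0582), whereas the Sst call remained without any single mouse. Both calls were also lost with classes named from marker counts alone and with the share of ribosomal RNA-like transcripts as a covariate (adjusted p = 0.122 and 0.107 in Sst).

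Because astrocytes hold much Clu, their markers were read in the Sst nuclei. Their summed level was 269 to 473 CPM in air mice (median 420) and 314 to 635 CPM in alcohol mice (median 415). All 12 markers had at least some UMIs, and 3 of them could be tested, of which 0 passed (edgeR) and 2 had higher estimates with alcohol (median log2 fold change 0.18). Slc1a2, the astrocytic glutamate transporter, was the tested marker without a higher estimate, at a log2 of -0.01. It made up much of the summed level, at a mean of 257 CPM with air and 263 CPM with alcohol. Gja1, the main astrocytic connexin, was at 12.4 CPM with air and 14.7 CPM with alcohol. Apoe, the other gene enriched in astrocytes, differed in Sst nuclei by -0.02 on the log2 scale (95% interval -0.25 to 0.20). Summed microglial markers in these nuclei were 61.2 to 139 CPM with air and 82.7 to 139 CPM with alcohol. Summed endothelial markers, of which none of 10 was at 0 and none could be tested, were 10.3, 6.12, 7.27 and 2.92 CPM in WT controls and 21.2, 20.8, 16.7 and 12.2 CPM in exposed WT mice, without overlap, whereas 3xTg-AD controls (11.6 to 23.2 CPM) and exposed 3xTg-AD mice (7.66 to 26.3 CPM) overlapped. The endothelial values rest on few UMIs, since 1 UMI in the Sst nuclei of WT control 26 was 5.15 CPM. In the GABAergic sum 7 astrocyte markers (5 higher with alcohol, median log2 fold change 0.07) and 8 microglial markers (6 higher, median 0.16) could be tested, and 0 passed by edgeR. Summed endothelial markers in that sum were 9.78 to 20.5 CPM with air (median 16.8) and 8.71 to 22.7 CPM with alcohol (median 13.1). There the 2 WT groups overlapped as well. The part of these other cell types in the Clu difference was not tested. The part of the unnamed droplets in these differences was not tested.

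The direction of Clu was the same in the 18 classes tested with all mice. Its estimate was higher with alcohol in 18 of 18 classes, with a median log2 fold change of 0.34 and a range from 0.04 in Vip to 0.68 in Sst, and 9 of the 18 had an unadjusted p of at most 0.05. Without the 3 air libraries rich in Gm42418 it was higher in 16 of 17 classes (median 0.23), with the exception of Vip (-0.10), and 4 had such a p. Of 489 genes tested in all 18 classes, 49 (10.0%) were higher in every class. The classes come from the same 16 mice, and their estimates are not independent. In astrocytes Clu was at 843, 438, 737 and 925 CPM in WT controls and 1260, 1136, 987 and 900 CPM in exposed WT mice. The 3xTg-AD controls had 565, 744, 1121 and 530 CPM and the exposed 3xTg-AD mice 939, 887, 1401 and 1033 CPM. The log2 fold change in astrocytes was 0.52 ± 0.17 (SE, adjusted p = 0.168), which did not pass, and 1 control in each genotype reached the exposed mice.

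The larger estimates for Apoe were in glia. They were higher with alcohol in 14 of 18 classes, and 4 had an unadjusted p of at most 0.05, which were astrocytes, OPCs, oligodendrocytes and microglia. Without the 3 air libraries rich in Gm42418 they were higher in 14 of 17 classes (median 0.13), and 4 had such a p. In astrocytes the WT controls had 4892, 4478, 4119 and 6063 CPM and exposed WT mice 7885, 9132, 5726 and 7018 CPM. The 3xTg-AD controls had 3218, 4816, 6022 and 3408 CPM and exposed 3xTg-AD mice 7264, 4741, 10821 and 4916 CPM. The exposed and control mice overlapped in both genotypes, and the log2 fold change of 0.62 ± 0.18 (SE) had an adjusted p of 0.104 by edgeR. It passed without exposed 3xTg-AD mouse 34 (0.69, adjusted p = 0.0402) and without 3xTg-AD control 14 (0.72, adjusted p = 0.0299), and Clu in astrocytes passed without the latter too (0.65, adjusted p = 0.00751). Over all 24 alternatives, Apoe in astrocytes ranged from 0.39 to 0.72, with an adjusted p of up to 0.400 (edgeR or DESeq2). Clu in astrocytes ranged from 0.33 to 0.65, with an adjusted p of up to 0.470.

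In OPCs the Apoe difference was 0.53 ± 0.13 on the log2 scale (SE), with an adjusted p of 0.0840 by edgeR, and DESeq2 called it. WT controls had 2051, 1564, 1923 and 1825 CPM, and all 4 exposed WT mice lay above them with 2671, 2967, 2498 and 3201 CPM. In 3xTg-AD mice the controls had 1214, 1690, 1925 and 1231 CPM and the exposed mice 2380, 1534, 3316 and 1324 CPM, and these overlapped. The estimates were 0.40 ± 0.13 in oligodendrocytes (adjusted p = 0.225) and 0.34 ± 0.12 in microglia (adjusted p = 0.206). In the 12 tested neuron classes they lay between -0.15 in Meis2 and 0.22 in L5/6 NP. No test between glial and neuronal estimates was made.

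**Figure D4:**
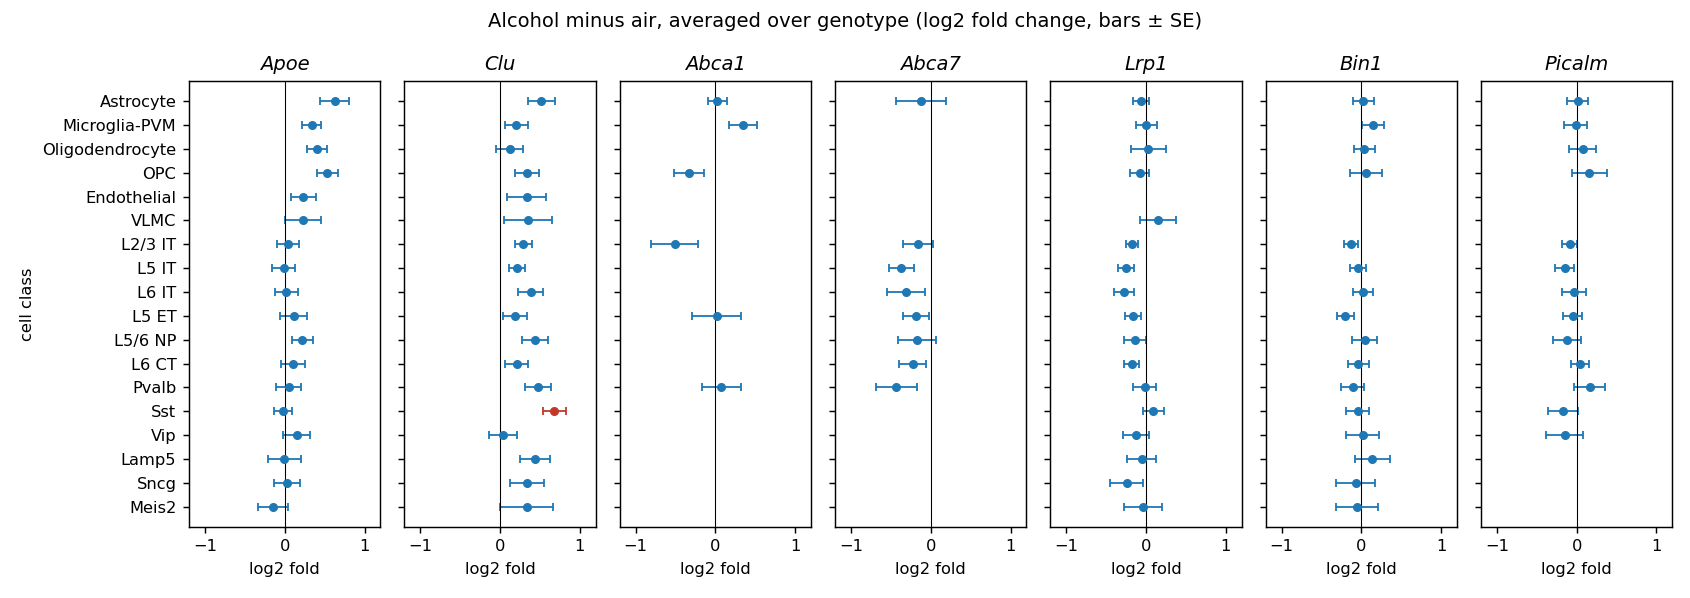
Log2 fold change of alcohol against air, averaged over genotype (horizontal axis), for each of the 7 genes in each class tested, with bars for the SE and red for an adjusted p of at most 0.05. Clu is above 0 in 18 of 18 classes with 1 call (Sst, 0.68), Apoe is highest in astrocytes (0.62), and Abca7 is below 0 in 8 of 8.

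The other 5 genes had no call with alcohol. Abca7 was lower in 8 of 8 classes (median -0.20), with -0.37 ± 0.15 (SE, adjusted p = 0.270) in L5 IT neurons, where it is highest. There WT controls had 68.1, 80.2, 40.5 and 43.4 CPM and exposed WT mice 39.1, 38.6, 32.7 and 33.02 CPM, without overlap, whereas 3xTg-AD controls (65.5, 40.0, 53.9 and 35.6 CPM) and exposed 3xTg-AD mice (45.7, 58.2, 45.9 and 34.7 CPM) overlapped. Their interaction was 0.59 ± 0.30 (SE, adjusted p = 0.999). The 3 air libraries rich in Gm42418 (68.1, 80.2 and 65.5 CPM) were the highest of all 16, and without them Abca7 was lower in 6 of 8 classes (median -0.06) and its log2 fold change in L5 IT was -0.06 (adjusted p = 0.891 by edgeR), as it was -0.07 with the ribosomal RNA-like covariate (adjusted p = 0.881).

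Lrp1 was lower with alcohol in 13 of 17 classes, by small amounts (median -0.08), while 49.7% of all 111419 tests had a higher estimate. Without the 3 air libraries rich in Gm42418 Lrp1 was lower in 11 of 16 classes (median -0.14), and 0 had an unadjusted p of at most 0.05. In all glutamatergic nuclei it was at 158, 159, 134 and 153 CPM in WT controls and 138, 138, 133 and 126 CPM in exposed WT mice, and at 152, 158, 157 and 137 CPM in 3xTg-AD controls and 140, 135, 127 and 122 CPM in exposed 3xTg-AD mice. The log2 fold change was -0.19 ± 0.06 (SE, adjusted p = 0.0855 by edgeR). In OPCs, the class where Lrp1 is highest, it was -0.08 (95% interval -0.32 to 0.16).

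Abca1, Bin1 and Picalm had no common direction over classes. Abca1 was tested in 6 classes, with log2 fold changes from -0.51 in L2/3 IT to 0.35 in microglia, and VLMC held too few counts for a test. Bin1 in oligodendrocytes differed by 0.04 (95% interval -0.23 to 0.30), and Picalm in microglia by -0.01 (-0.29 to 0.27).

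In the sum of all nuclei, in which fewer cells of a type and less RNA per cell cannot be told apart, none of the 7 genes passed for alcohol by edgeR, where 3.3% of 16767 genes were called. Clu (0.35 ± 0.15), Abca7 (-0.27 ± 0.12) and Lrp1 (-0.13 ± 0.06, all log2 ± SE) had an unadjusted p of at most 0.05, and DESeq2 called 1, Lrp1 (-0.13, adjusted p = 0.0482). Apoe was at 0.39 ± 0.19 (adjusted p = 0.244). Without the same 3 air libraries Clu was at 0.19 and Abca7 at -0.13.

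The single comparisons with alcohol gave no call of the 7 genes in any class by edgeR. In WT mice, where 0.0377% of all tests were called, 8 of 96 had an unadjusted p of at most 0.05, against 8.85% of all tests, and DESeq2 called 0 with 6 such p-values. Clu in Sst interneurons had the smallest p of these, at 0.80 ± 0.21 on the log2 scale (SE) with an adjusted p of 0.112. In 3xTg-AD mice, where 0.17% of tests were called, 17 of 96 (17.7%) had such a p, against 8.28% of all tests, 15 of them higher with alcohol, and DESeq2 called 0 with 11. Clu gave 9 of these 17 and Apoe 5, in classes of the same mice that are not independent, and the genes were chosen with earlier results of these data known. Exposed 3xTg-AD mice against WT controls had 1.12% of tests called over all genes and 0 of the 96 by edgeR and by DESeq2, with 12 (12.5%) and 6 at an unadjusted p of at most 0.05, against 12.03% of all tests by edgeR.

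The effect of alcohol was not shown to differ between the genotypes for any of the 7. The interaction was called for 0 of 96 tests by either tool, with 2 at an unadjusted p of at most 0.05 in each, against 4.21% of all tests by edgeR, where 0.00269% of tests over all genes were called. For Clu in Sst interneurons it was -0.24 (95% interval -0.83 to 0.35) and for Apoe in astrocytes 0.07 (-0.62 to 0.75), so that sizeable differences between the genotypes remain possible. Abca1 in the sum of all nuclei had 0.58 ± 0.19 (SE), with an unadjusted p of 0.00724 and an adjusted p of 0.944.

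The genotype itself left the 7 genes without a call. Averaged over exposure, 0 of 96 tests passed by edgeR and by DESeq2, with 8 at an unadjusted p of at most 0.05 in each (8.33%, against 10.04% of all tests by edgeR), and 0.964% of tests over all genes were called. For 3xTg-AD against WT controls 0 passed by either tool, with 6 and 5 such p-values, against 6.34% of all tests by edgeR, and a background of 0.171% called. For exposed 3xTg-AD against exposed WT mice 0 passed, with 7 and 5, against 8.54% of all tests, and a background of 0.385% called. Apoe in astrocytes differed by -0.15 (95% interval -0.50 to 0.19) and Clu by -0.02 (-0.36 to 0.31).

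The smallest genotype p of the 7 over classes belonged to Apoe in Sncg interneurons (0.48 ± 0.16, adjusted p = 0.292), followed by Bin1 in L5 ET neurons. Bin1 there was at 126, 157, 148 and 125 CPM in WT controls, 102, 113, 118 and 120 CPM in exposed WT mice, 116, 83.5, 124 and 88.6 CPM in 3xTg-AD controls and 106, 101, 73.2 and 104 CPM in exposed 3xTg-AD mice. The genotype difference was -0.34 ± 0.11 (SE, adjusted p = 0.172), and exposed 3xTg-AD mice differed from WT controls by -0.54 ± 0.15 (adjusted p = 0.0956), their 4 values all lying below the 4 controls. Abca1 was lower in 3xTg-AD mice in 4 of 6 classes and higher in 2, with log2 fold changes from -0.71 to 0.20. In 3 of the 6 the unadjusted p was at most 0.05, and the smallest adjusted p was 0.325 by edgeR. In astrocytes it was lower in 3xTg-AD mice by -0.26 ± 0.12 (adjusted p = 0.420).

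Genes that act with these 7 were read from 3 lists, of lipoprotein receptors and their regulators (18 of 20 listed genes were in the table used), apolipoproteins and lipid efflux (22 of 25) and endocytic adaptors (32 of 32). For genotype averaged over exposure, the receptor list gave 0 higher and 2 lower calls among 133 tests in classes, both of Sorl1, the efflux list 0 among 148 (medians -0.06 and -0.07), and the adaptor list 1 higher, Fcho1, among 433 (median -0.01). Over all 111419 tests 0.964% were called and the median was 0.00. For alcohol, where 0.676% of all tests were called, the receptor list gave 0 calls among its 133 tests, the efflux list 2 higher, Apoa1 and Apod, among 148, and the adaptor list 0 among 433, with medians of 0.04, 0.04 and -0.05.

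Sorl1, a sorting receptor that directs APP away from amyloid processing and is itself an AD gene, fell in L2/3 IT and L5 IT neurons of 3xTg-AD mice. In L2/3 IT neurons it was at 148, 150, 115 and 135 CPM in WT controls and 108, 152, 113 and 129 CPM in exposed WT mice. It was at 94.6, 87.4, 94.2 and 69.2 CPM in 3xTg-AD controls and 84.5, 82.2, 92.2 and 127 CPM in exposed 3xTg-AD mice. Only 1 of the 8 3xTg-AD mice reached the WT range, and the log2 fold change was -0.53 ± 0.10 (SE, adjusted p = 0.00492 by edgeR). In all glutamatergic nuclei it was -0.37 ± 0.08 (adjusted p = 0.0200), with 188 to 234 CPM in WT and 133 to 202 CPM in 3xTg-AD mice. L5 IT neurons (-0.38, adjusted p = 0.0437) and the sum of all nuclei (-0.32, adjusted p = 0.0207) were also called, the latter not without 3xTg-AD control 13 (-0.31, adjusted p = 0.0551) or exposed WT mouse 18 (-0.30, adjusted p = 0.0509). The L5 IT call was lost without any of 10 of the 16 mice in turn (adjusted p up to 0.124).

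Fcho1, which helps start clathrin-coated pits, rose in 3xTg-AD oligodendrocytes. WT controls had 66.0, 160, 127 and 97.6 CPM, exposed WT mice 111, 57.2, 129 and 29.7 CPM, 3xTg-AD controls 193, 170, 221 and 164 CPM and exposed 3xTg-AD mice 194, 222, 200 and 254 CPM. All 8 3xTg-AD values lay above all 8 WT values. The log2 fold change was 1.08 ± 0.19 (SE), a 2.12-fold difference with an adjusted p of 5.9e-05, and it passed under all 24 alternatives tried. Oligodendrocytes are also the class with the highest level of Bin1, for which the genotype difference there was -0.00 (95% interval -0.27 to 0.26).

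**Figure D5:**
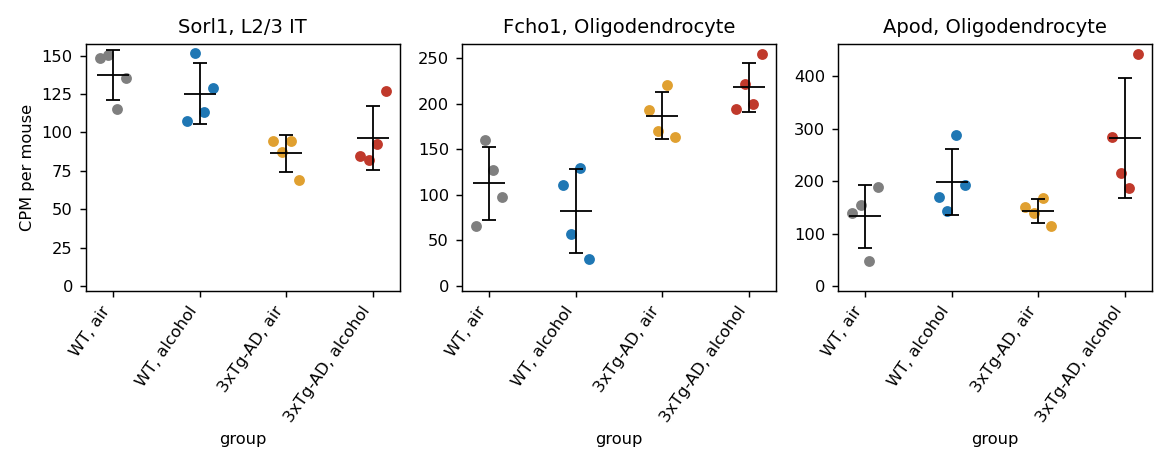
CPM per mouse (vertical axis, from 0) in the 4 groups for Sorl1 in L2/3 IT neurons and for Fcho1 and Apod in oligodendrocytes, with 1 point per mouse, a long line for the mean and bars for the SD. Sorl1 is lower and Fcho1 higher in 3xTg-AD mice, while Apod is highest in exposed 3xTg-AD mice (187 to 442 CPM).

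The lists also held calls with alcohol. Apod, an apolipoprotein of glia, was higher in oligodendrocytes by 0.74 ± 0.17 (log2 ± SE, adjusted p = 0.0284), with 139, 154, 47.5 and 189 CPM in WT controls, 170, 143, 288 and 193 CPM in exposed WT mice, 151, 139, 167 and 114 CPM in 3xTg-AD controls and 284, 215, 187 and 442 CPM in exposed 3xTg-AD mice. Only in 3xTg-AD mice did the exposed and control values not overlap, and the call was lost when any of 9 of the 16 mice was left out (adjusted p up to 0.245). Apoa1, the apolipoprotein of high-density lipoprotein, was higher in L2/3 IT neurons by 0.68 ± 0.17 (adjusted p = 0.0331), at 7.41 to 17.98 CPM with air and 11.5 to 24.3 CPM with alcohol, and was lost without any of 7 mice (adjusted p up to 0.0807). Over all 24 alternatives the Apoa1 difference ranged from 0.42 to 0.91, with an adjusted p of up to 0.456 (edgeR or DESeq2). Lrpap1, a chaperone of Lrp1 and its relatives, was higher in GABAergic nuclei by 0.40 ± 0.10 (adjusted p = 0.0260), at 79.3 to 114 CPM with air and 97.2 to 161 CPM with alcohol, and was lost without any of 6 mice (adjusted p up to 0.0806). Without the 3 air libraries rich in Gm42418, Apod (0.74, adjusted p = 0.170) and Lrpap1 (0.34, adjusted p = 0.0718) did not pass by edgeR, whereas Apoa1 did.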

How the data were processed

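The authors aligned the reads to mm10 with Cell Ranger 6.1.1, which uses STAR, and deposited raw UMI counts per gene and nucleus, which were used as given. The 7 genes, the marker genes and the gene lists were chosen with earlier results of these data known. The study's own cell type names were not used here. Nuclei were clustered (2000 variable genes, 30 principal components, 20 neighbours, leidenalg 0.10.2, resolution 1.5) without the genes of the lists and named from markers, so class borders can differ from the study's. No doublet caller was run, and nuclei whose own marker counts name the same class served as an alternative. Unnamed droplets entered no class.

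Counts were summed per mouse and class, with at least 10 nuclei in at least 3 mice of every group, and compared by a robust quasi-likelihood fit (R 4.3.3, edgeR 4.0.16) after TMM scaling and filterByExpr (1 mean per group over all 16 mice, 15 for VLMC), adjusted by Benjamini-Hochberg over all genes of a class. The SE was derived from the F statistic, and 95% intervals use a normal approximation. In simulated Sst data the test for alcohol averaged over genotype recovered 43% of 1.5-fold and 87% of 2-fold changes among 5984 genes, with 9 false calls. The counts were drawn from the fitted model and the changes set in genes of any level. No simulated library stood apart like the 3 rich in Gm42418. Alternatives were DESeq2 1.42.0, RLE normalization, no filter on low counts, stricter nuclei (500 genes, 5% mitochondrial UMIs), classes from marker counts alone, a covariate for ribosomal RNA-like transcripts and leaving out mice. All 7 genes were named, and from the lists those called, apart from an item that is not reported here. P-values set a difference between groups against the spread between mice. Intervals cover that spread only.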

Additional observations from a re-analysis of the deposited data

Results flagged for a closer look

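Of 104 groups of 4 mice with values for the genes above, 3 held a mouse that stood apart from the other 3 by Dixon's criterion, which chance meets in about 1 of 20 groups. Among the 7 genes this was Bin1 in L5 ET neurons, where exposed 3xTg-AD mouse 33 was low at 73.2 CPM and the other 3 lay between 101 and 106 CPM. Lrpap1 in GABAergic nuclei was high in 3xTg-AD control 14, at 114 CPM against 102 CPM in each of the others. Sorl1 in L5 IT neurons was high in exposed 3xTg-AD mouse 34, at 230 CPM against 188 to 192 CPM.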

How the results depend on the processing

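For alcohol averaged over genotype, 1 call of the 7 genes in classes became 2 with DESeq2 (Apoe in OPCs was added), 4 with no filter on low counts (Apoe and Clu in astrocytes and Apoe in OPCs were added) and 0 once the 3 libraries richest in Gm42418 were set aside, and ranged from 1 to 4 when each mouse was left out in turn. These 3 are all air libraries, and their part in the alcohol difference was not tested. With no filter, 1 call each appeared for alcohol in WT mice (Clu in Sst), for alcohol in 3xTg-AD mice (Apoe in astrocytes) and for exposed 3xTg-AD mice against WT controls (Clu in astrocytes). Leaving out exposed 3xTg-AD mouse 34 gave 1 call between exposed 3xTg-AD and exposed WT mice (Apoe in Sncg), and leaving out exposed 3xTg-AD mouse 33 gave 1 for genotype (Apoe in OPCs), where the range was 0 to 1 in each. In the sum of all nuclei DESeq2 gave 1 call for alcohol (Lrp1). The shares of all genes called that are given above are those of the main edgeR fit. Shares under the other settings are not given, so these added calls cannot be set against a background.

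The log2 fold change of Clu in Sst interneurons ranged from 0.59 to 0.75 with 1 mouse left out. It was 0.49 with classes from marker counts alone (adjusted p = 0.122), 0.55 with the ribosomal RNA-like covariate (adjusted p = 0.107) and 0.52 without the 3 mice (adjusted p = 0.0820), and these 3 of 24 alternatives ended its call. In GABAergic nuclei it ranged from 0.35 to 0.43 with 1 mouse left out, and was 0.34 with marker counts alone (adjusted p = 0.115), 0.29 with the covariate (adjusted p = 0.137) and 0.27 without the 3 mice (adjusted p = 0.122). With no filter on low counts Apoe (0.64, adjusted p = 3.3e-05) and Clu (0.53, adjusted p = 0.000378) passed in astrocytes. Their lowest estimates there over all 24 alternatives were 0.39 for Apoe and 0.33 for Clu. Abca1 in all nuclei, -0.00 for alcohol, was 0.11 with the covariate and without the 3 mice, and passed in neither. With classes from marker counts alone, the level of Lrp1 in OPCs was 373 CPM and that of Bin1 in oligodendrocytes 271 CPM, each more than 1 SD below the values given. The cause of these differences was not tested. No alternative turned the direction of a call. No paired analysis was possible because the mouse numbers are not shared between the groups.

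Depth was one limit. Abca1 and Abca7 had few UMIs per mouse in most classes, and 96 of the 126 gene and class pairs were tested. With 4 mice a group, the simulated Sst data recovered 43% of 1.5-fold changes.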
